A study of Aspergillus nidulans with 24 samples.

Results

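The 10 genes facA, facB, acuD, acuE, acuF, acuG, acuJ, acuK, acuM and acuN carry the use of acetate, the glyoxylate cycle and gluconeogenesis in the mould Aspergillus nidulans. They were chosen by gene symbol, and all 10 were found among the 8728 genes of the table. Mycelium of a strain without areB and of a wild type strain was grown in 4 media, 8 groups of 3 biological replicates, and the study asked how AreB, a GATA-type transcription factor, acts in nitrogen and carbon control. The deletion strain is labelled areBΔ with A.f. pyrG at the locus, and it also carries pyrG89, argB2, nkuAΔ::argB, pabaB22 and riboB2. The wild type is labelled biA1 and nothing more. Effects of areB and of these other loci cannot be told apart. Each strain grew on 0.1% fructose with 5 mM urea, 0.1% fructose with 10 mM ammonium tartrate, 1% glucose with 5 mM urea or 1% glucose with 10 mM ammonium tartrate, for 9 to 11 h at 37 °C. By the labels fructose and urea do not repress the use of other carbon and nitrogen sources, and glucose and ammonium do. The kind and the amount of sugar changed together, as did ammonium and tartrate, so neither pair can be told apart.

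Acetate enters metabolism when acetyl-CoA synthetase, the product of facA, joins it to coenzyme A. Carnitine acetyltransferases such as AcuJ pass the acetyl group between compartments. The glyoxylate cycle enzymes isocitrate lyase (acuD) and malate synthase (acuE) turn acetyl-CoA into a net gain of C4 acids. Phosphoenolpyruvate carboxykinase (acuF) opens the way from these acids to sugar, and fructose-1,6-bisphosphatase (acuG) closes it, while enolase (acuN) serves gluconeogenesis and glycolysis alike. FacB is the zinc cluster activator of acetate-induced genes, and AcuK and AcuM are zinc cluster regulators needed for growth on gluconeogenic carbon sources. In this fungus the repressor CreA keeps many such genes low on glucose.

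Levels below are the authors' means of normalized counts over the libraries of a group. No spread between libraries was used here, so levels and the ratios between media carry no error, and they are described without a test. As a check of the labels, areB itself was listed at 0 in all 4 groups of the deletion strain, against means from 67.9 to 93.9 in the wild type. The steps between the lowest values, taken as the worth of 1 read in each library, put the libraries at about 1.45e+06 to 5.00e+06 counted reads. The lowest member mean, that of acuF in the wild type on glucose with urea, rested on about 72 reads, with a 95% exact Poisson interval of 15.5 to 24.9 around 19.8. Such intervals cover counting error only. In mycelium as a whole, fewer expressing cells and less RNA per cell cannot be told apart.

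In both strains all members but acuN had higher group means on fructose than on glucose, with either nitrogen source. The widest ratios were those of facA, facB, acuD, acuE, acuF, acuG and acuJ, which cover acetate activation, its activator, the glyoxylate cycle, the carnitine shuttle and the gluconeogenic entry and exit steps. In the deletion strain facA, acuF and acuG were past a ratio of 2 with both nitrogen sources. In the wild type all 7 genes just named were. Of all genes 9.76% with urea and 10.2% with ammonium were past it in the deletion strain, against 20.2% and 15.9% in the wild type. The share was thus smaller in the deletion strain for all genes too, and several of the 7 lay close to the limit there with urea. The group means of these 7 on fructose were lower in the deletion strain than in the wild type. The wild type means on fructose also enter the ratios by which the 7 stood out, so the 2 observations are not independent. The regulator genes acuK and acuM stayed within a ratio of 2 over all groups, as did the enolase gene acuN, whose means in the wild type were lower on fructose. No member passed the authors' test of deletion against wild type, made with DESeq2 per the submitters' processing notes, in any medium. Of all genes only 1.88% to 2.51% passed it, depending on the medium, so a count of 0 among 10 members does not set them apart.

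**Figure D1:**
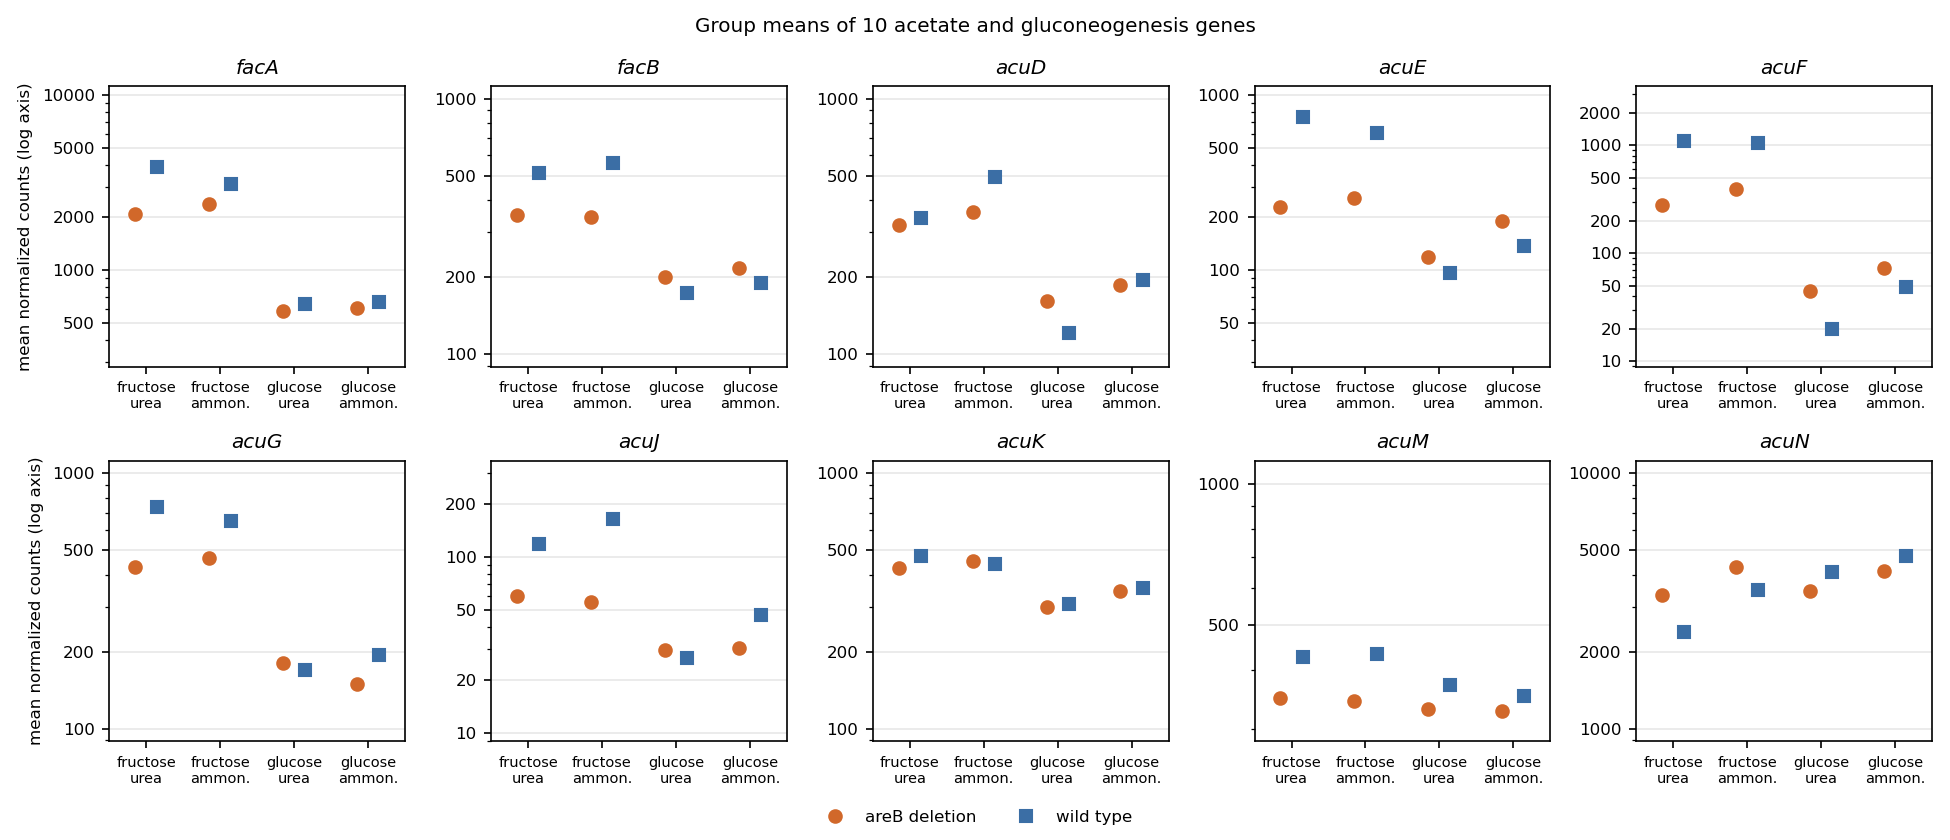
Each panel plots the authors' mean normalized counts of a gene (log axis) in the 4 media, with circles for the areB deletion strain and squares for the wild type. On fructose the circles lie below the squares for facA, facB, acuD, acuE, acuF, acuG, acuJ and acuM, while acuN lies between 2391 and 4759 throughout.

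Among the regulators facB moved with the carbon source. On fructose facB had means of 350.9 with urea and 343.7 with ammonium in the deletion strain, against 511 and 561 in the wild type. On glucose it had 199.9 and 218 in the deletion strain, against 173 and 190.0 in the wild type. Fructose was thus above glucose in both strains, and the strains lay in opposite order on the 2 sugars. The gene acuK had 427, 456, 299.9 and 346 in the deletion strain, in the order urea and then ammonium on fructose, urea and then ammonium on glucose, against 476, 443, 309 and 355 in the wild type. Its partner acuM had 349, 344, 329.9 and 327 in the deletion strain in the same order, against 428, 433, 372 and 353 in the wild type. The highest mean of acuM was 1.33 times the lowest over all 8 groups and that of acuK 1.59 times, against 3.24 times for facB.

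For acetate activation, facA followed the carbon source in both strains. Its means on fructose were 2079.6 with urea and 2393 with ammonium in the deletion strain, against 3878 and 3096 in the wild type. On glucose facA had 588 and 611 in the deletion strain, against 638 and 660.1 in the wild type, so the strains differed little there. The carnitine acetyltransferase gene acuJ had 59.9 and 55.4 on fructose in the deletion strain, against 119 and 166 in the wild type, and 29.6 and 30.4 on glucose, against 26.8 and 46.8. For acuJ the wild type on fructose with ammonium stood highest of all groups.

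Isocitrate lyase, acuD, had 319 with urea and 359 with ammonium on fructose in the deletion strain, against 339.8 and 493 in the wild type. On glucose acuD had 161 and 187 in the deletion strain, against 121 and 196 in the wild type. The malate synthase gene acuE had 229.5 and 256 on fructose in the deletion strain, against 750.4 and 609 in the wild type, and 119 and 191 on glucose, against 96.9 and 138. On fructose the wild type mean of acuE was 3.27 times that of the deletion strain with urea and 2.37 times with ammonium, and that of acuD 1.06 and 1.37 times. The difference between these 2 genes was not tested.

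In gluconeogenesis acuF had the widest range of the 10 genes, with a highest mean 55.6 times its lowest. On fructose it had 283 with urea and 391 with ammonium in the deletion strain, against 1102 and 1049 in the wild type. On glucose acuF had 45.1 and 73.9 in the deletion strain, against 19.8 and 48.7 in the wild type. The deletion strain thus lay below the wild type on fructose and above it on glucose, as group means. The fructose-1,6-bisphosphatase gene acuG had 430.1 and 465 on fructose in the deletion strain, against 741 and 654 in the wild type, and 181 and 149.5 on glucose, against 169 and 194. Enolase, acuN, had 3334 and 4314 on fructose in the deletion strain, against 2391 and 3507 in the wild type, and 3468 and 4133 on glucose, against 4119 and 4759.

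The carbon response can be read as the log2 ratio of the group means plus 1, fructose over glucose, where 7759 genes with a mean over the 8 groups of at least 10 serve as background. With urea the ratio passed 2 for 3 members in the deletion strain, where 9.76% of all genes did, and for 7 members in the wild type, where 20.2% of all genes did. With ammonium it passed 2 for 3 members in the deletion strain (10.2% of all genes) and for 7 in the wild type (15.9% of all genes). No member was lower by more than 2 times, which 4.6% and 4.7% of all genes were with urea and with ammonium in the deletion strain, against 7.66% and 5.32% for the wild type. The member median was 0.97 with urea and 0.75 with ammonium in the deletion strain, against 1.84 and 1.65 in the wild type, while the median of all genes lay between 0.03 and 0.05 on this scale. Several members stood close to the limit in the deletion strain with urea: the plain ratio of means was 1.94 for acuE, 1.98 for acuD and 2.02 for acuJ, and the last fell short once 1 was added to each mean. With the group means scaled to equal sums, 6 members passed there, and the share of all genes under that scaling is not given.

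For the 7 genes past a ratio of 2 in the wild type the ratio of fructose to glucose was smaller in the deletion strain, in different degree. These 7 were picked by their wild type ratio, so a smaller ratio in the deletion strain is partly set by the choice. Over all genes, too, fewer were past 2 in the deletion strain. The values below are therefore a description only. The acuF ratio of fructose to glucose was 6.28 with urea and 5.29 with ammonium in the deletion strain, against 55.6 and 21.5 in the wild type, where it stood at the 98.9th and 98.2nd percentile of all genes. For acuE the ratio was 1.94 and 1.34 in the deletion strain, against 7.75 and 4.42 in the wild type. The facA ratio was 3.54 and 3.92 in the deletion strain, against 6.07 and 4.69 in the wild type. For acuG it was 2.37 and 3.11 in the deletion strain, against 4.38 and 3.37 in the wild type, and for facB 1.76 and 1.58, against 2.96 and 2.95. The acuD ratio was 1.98 and 1.92 in the deletion strain, against 2.81 and 2.52 in the wild type, and that of acuJ 2.02 and 1.82, against 4.45 and 3.55. The regulator genes stood apart, with ratios for acuK of 1.42 and 1.32 in the deletion strain, against 1.54 and 1.25 in the wild type, and for acuM of 1.06 and 1.05, against 1.15 and 1.23. The acuN ratio was 0.961 and 1.04 in the deletion strain, against 0.580 and 0.737 in the wild type.

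**Figure D2:**
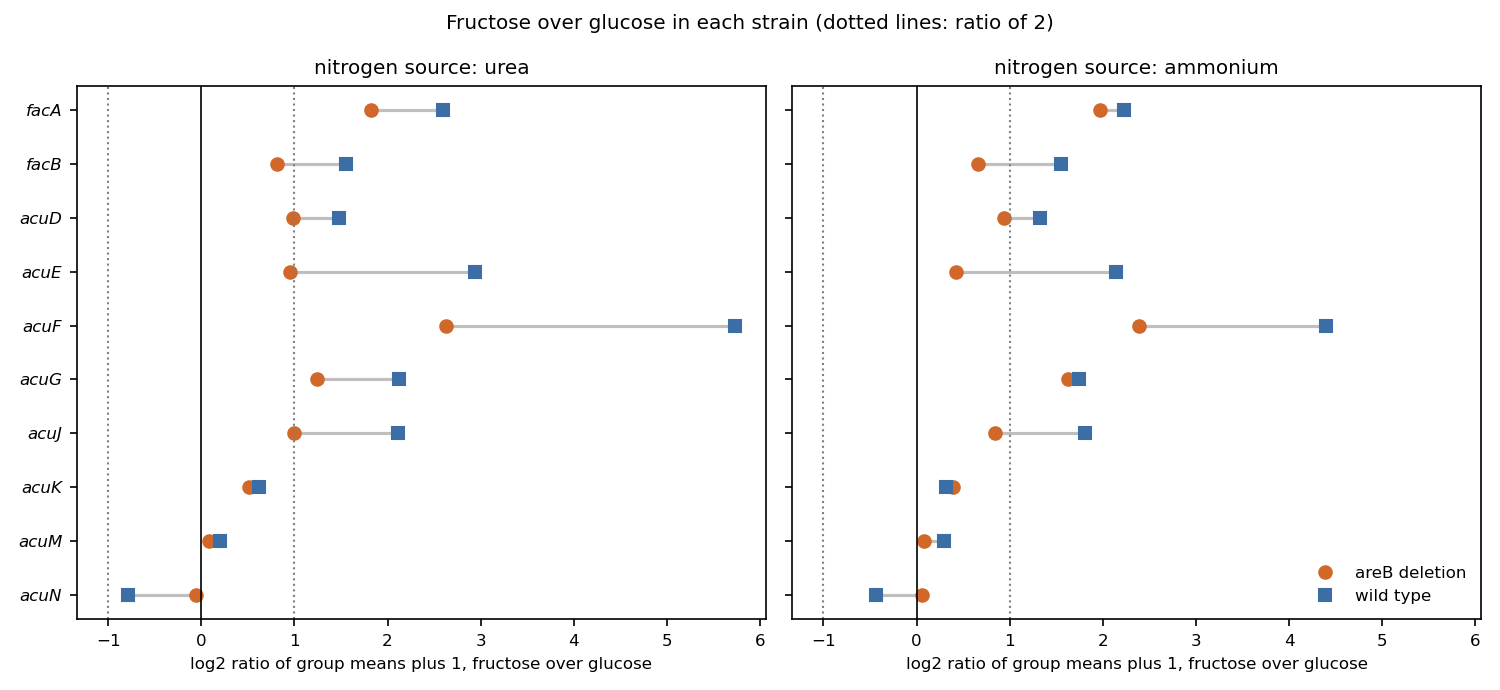
Log2 ratio of the authors' group means plus 1, fructose over glucose, with urea (left) and ammonium (right), for each member in the areB deletion strain (circles) and the wild type (squares); dotted lines mark a ratio of 2. The acuF ratio lies farthest right in both strains, at 2.62 for the deletion strain and 5.73 for the wild type with urea, and acuN is left of 0 in the wild type.

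The nitrogen source moved the members less. No member passed a ratio of 2 between urea and ammonium on fructose in either strain, where 1.04% of all genes were higher and 1.29% lower with urea in the deletion strain, against 4.64% and 2.94% in the wild type. On glucose none passed in the deletion strain (1.56% higher and 1.7% lower over all genes). In the wild type on glucose only acuF did, with 19.8 on urea and 48.7 on ammonium, a log2 ratio of -1.26, where 3.45% of all genes were lower and 1.38% higher with urea. Next in the wild type on glucose stood acuJ at -0.78 and acuD at -0.69. On fructose the wild type means of acuN, acuD and acuJ were lower with urea, at log2 ratios of -0.55, -0.54 and -0.48, while those of facA and acuE stood at 0.32 and 0.30.

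The deletion was tested by the authors in each medium, over 8639 genes with an adjusted p. On fructose with urea no member was called at an adjusted p under 0.05 in the authors' deposited table, where 2.22% of all genes were, 9 of 10 had a log2 fold change of deletion over wild type below 0, against 52.4% of all genes, and the median was -0.62 against -0.03. Values after ± are standard errors recovered from the adjusted p. In the authors' deposited table acuF stood at -1.58 ± 0.69 (adjusted p 0.283), acuE at -1.29 ± 0.72 (0.504), acuJ at -0.88 ± 0.50 (0.528) and acuG at -0.75 ± 0.33 (0.283) on the log2 scale. The authors' deposited table also gave facA -0.75 ± 0.62 (adjusted p 0.747). The remaining 5 members lay nearer to 0 there, with facB at -0.50 ± 0.44, acuM at -0.28 ± 0.19, acuK at -0.15 ± 0.25, acuD at -0.07 and acuN at 0.42 ± 0.51 in the authors' deposited table. The recovered p before adjustment was 0.0216 for acuF and for acuG, the 2 members under 0.05, as were 11.7% of all genes.

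On fructose with ammonium again no member was called, against 2.51% of all genes. There 8 of 10 log2 fold changes were below 0 in the authors' deposited table, against 52% of all genes, with a median of -0.43 against -0.03. The authors' deposited table gave acuJ -1.41 ± 0.50 (adjusted p 0.116), the smallest adjusted p of any member in any medium, with a recovered p of 0.0052, where 13% of all genes had a recovered p under 0.05. For other members it gave acuF -1.15 ± 0.69 (adjusted p 0.509), acuE -0.94 ± 0.72 (0.656) and facB -0.65 ± 0.44 (0.605). Nearer to 0 it placed acuG at -0.47 ± 0.33, acuD at -0.39 ± 0.57, acuM at -0.33 ± 0.19, acuK at 0.05 and acuN at 0.26 ± 0.51. The log2 fold change of facA was -0.31 ± 0.62 in the authors' deposited table.

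On glucose every member had an adjusted p of 1 in the authors' deposited table, with urea and with ammonium, where 1.88% and 1.91% of all genes were called. No member had a recovered p under 0.05 on glucose, where 7.78% of all genes with urea and 7.58% with ammonium had one. Of the 10 log2 fold changes 4 were below 0 with urea, against 49.8% of all genes, and 7 with ammonium, against 52.6%. The widest were those of acuF with urea, at 0.76, and of acuJ with ammonium, at -0.54, in the authors' deposited table. A missed threshold leaves room for sizeable effects, since the standard errors of the members ran from 0.19 for acuM to 0.72 for acuE, and on glucose they were borrowed from the fructose comparisons of the same gene.

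**Figure D3:**
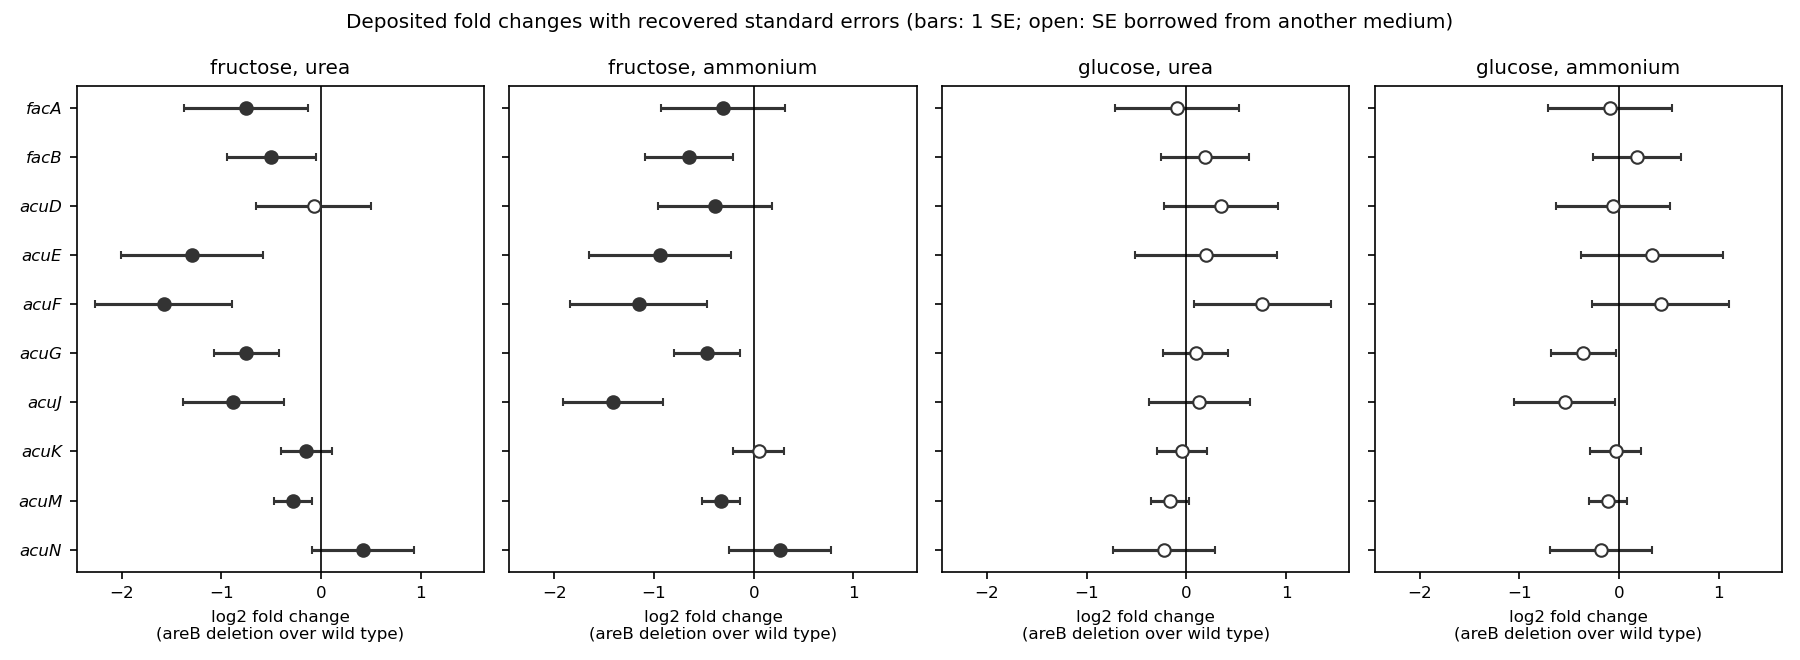
Deposited log2 fold changes (areB deletion over wild type) of the members, a panel for each medium, with bars of 1 recovered standard error; open points carry a standard error borrowed from another medium. On fructose 9 members with urea and 8 with ammonium lie below 0, and acuN lies above it in both.

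Whether the deletion effect differed between media was tested as the difference of the deposited log2 fold changes over the recovered standard errors, 2-sided, with Benjamini-Hochberg adjustment over 8444 genes. The same difference compares the medium response of the strains. Fructose minus glucose with urea, 9 of 10 members had a difference below 0, against 54.6% of all genes, with a median of -0.67 against -0.05. For acuF the difference was -2.34 ± 0.97, with a 95% interval of -4.25 to -0.44 and a p of 0.0159 in this normal test across all genes, adjusted to 1.00. No other member had a p under 0.05 in the 4 comparisons of media. In fructose minus glucose with urea 250 of the 8444 genes had one. The differences were -0.85 ± 0.46 for acuG, -1.01 ± 0.71 for acuJ and -1.49 ± 1.01 for acuE. With ammonium 8 of 10 were below 0, against 51.8% of all genes, and acuF stood at -1.57 ± 0.97 with an interval of -3.48 to 0.33. No gene of the 8444, members included, passed the adjusted threshold in any of the 4 comparisons, which also set urea against ammonium on fructose and on glucose. In the comparisons other than fructose minus glucose with urea, 112, 54 and 68 of the 8444 genes had an unadjusted p under 0.05. No member had one there. In all 4 comparisons the share lay below the nominal level of 0.05, so the test was conservative. The cause was not tested. The deposited fold changes were moderated towards 0 and the errors were recovered or borrowed, so the intervals are approximate. The lack of calls does not show that the deletion effect was equal between media. Urea minus ammonium, 5 of 10 members were below 0 on fructose, against 50.4% of all genes, and 5 of 10 on glucose, against 44.7%.

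Genes around the pathway were looked up in 5 lists. The median log2 ratio of fructose over glucose in the acetate list below was 2.39 with urea and 2.72 with ammonium in the deletion strain, against 3.48 and 2.72 in the wild type. For peroxisome and beta-oxidation genes it was 0.80 and 0.71 in the deletion strain, against 1.10 and 1.40 in the wild type. For glycolysis and pyruvate use it was -0.29 and -0.29, against -0.88 and -0.74. For the citrate steps it was 0.36 and 0.69 in the deletion strain, against 0.28 and 0.54 in the wild type, and for other regulators 0.65 and 0.68, against 0.95 and 0.71. Over all genes these medians lay between 0.03 and 0.05. Of 8 genes for acetate uptake, ethanol use, the carnitine shuttle and carriers, alcA, the ethanol-induced alcohol dehydrogenase, rose in the deletion strain on fructose with ammonium (log2 fold change 2.52, adjusted p 0.0152) and on glucose with urea (2.37, adjusted p 0.0362) in the authors' deposited table, and no other gene of the 5 lists was called in any medium. Its means were 953 and 716 on fructose with urea and with ammonium in the deletion strain, against 157 and 79.0 in the wild type, with ratios of fructose to glucose of 14.2 and 6.63, against 34.0 and 1.93. Of the 7 genes of that list past the low-value filter, alcA included, 4 with urea and 5 with ammonium were past a ratio of 2 higher on fructose in the deletion strain (9.76% and 10.2% of all genes), against 7 and 6 in the wild type (20.2% and 15.9%). The mitochondrial succinate-fumarate carrier gene acuL had 95.9 and 172 on fructose with urea and with ammonium in the deletion strain, against 73.4 and 281 in the wild type, and 17.5 and 22.7 on glucose, against 5.66 and 21.0. The aldehyde dehydrogenase gene aldA, whose enzyme yields acetate from acetaldehyde, had 1546 and 1607 on fructose in the deletion strain, against 2766 and 2506 in the wild type, and 197 and 192 on glucose, against 109.5 and 116. Like facA, acuL and aldA thus lay lower on glucose in both strains. The ethanol regulator gene alcR had ratios of fructose to glucose of 14.9 and 18.5 in the deletion strain, against 13.4 and 11.9 in the wild type.

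Among citrate, malate and pyruvate steps, 13 of 18 symbols were matched. With urea 2 of the 13 were past a ratio of 2 higher on fructose in the deletion strain (9.76% of all genes), against 2 in the wild type (20.2%). With ammonium 4 were in the deletion strain (10.2% of all genes), against 4 in the wild type (15.9%). The methylcitrate synthase gene mcsA had 35.0 and 40.0 on fructose in the deletion strain, against 217 and 460 in the wild type. On glucose mcsA had 15.1 and 10.4 in the deletion strain, against 0.401 and 3.71 in the wild type, the first of these being within the worth of 3 reads. The aconitase gene acoA had 768 and 951 on fructose in the deletion strain, against 1158 and 3318 in the wild type, and 391 and 497 on glucose, against 274 and 313. Both mcsA and acoA thus stood highest in the wild type on fructose with ammonium. A putative malate dehydrogenase gene, mdhB, had 77.4 in the deletion strain against 948 in the wild type on fructose with ammonium. It had at most 1.34 in the other 6 groups. No adjusted p was given for mdhB in any medium, and its deposited log2 fold change on fructose with ammonium was -1.64. Whether all libraries of the wild type group shared the level of 948 was not tested. The malic enzyme gene maeA had 462.5 and 614.5 on fructose in the deletion strain, against 241.5 and 277 in the wild type, and its adjusted p was 0.719 with urea and 0.542 with ammonium in the authors' deposited table.

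Of the other regulators, 8 of 10 symbols were matched, and 2 with urea and 2 with ammonium were past a ratio of 2 higher on fructose in the deletion strain (9.76% and 10.2% of all genes), against 4 and 3 in the wild type (20.2% and 15.9%). The repressor gene creA had 88.2 and 72.9 on fructose in the deletion strain, against 302 and 411 in the wild type, and 64.4 and 50.6 on glucose, against 42.1 and 62.1. Its ratio of fructose to glucose was 1.37 with urea and 1.44 with ammonium in the deletion strain, against 7.18 and 6.63 in the wild type. The fatty acid regulator gene farB had 263 and 316 on fructose in the deletion strain, against 612.5 and 632 in the wild type, and 29.0 and 53.5 on glucose, against 27.7 and 58.0. Like acuF, farB was higher on fructose in both strains. The regulator gene farA had 127 and 133 on fructose in the deletion strain, against 177 and 190.4 in the wild type. The arrestin-like gene creD was higher on glucose, with ratios of fructose to glucose of 0.414 and 0.332 in the deletion strain, against 0.605 and 0.294 in the wild type.

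The list of glycolysis and pyruvate use held 13 matched genes of 15 symbols, and none was past a ratio of 2 higher on fructose. In the deletion strain 2 were past a ratio of 2 lower on fructose with urea and 2 with ammonium (4.6% and 4.7% of all genes). In the wild type 6 and 2 were (7.66% and 5.32%). The 6 were pfkA, pkiA, pdcA, pdhA, pdhB and pdhC, of which pdcA, pdhA, pdhB and pdhC are genes of pyruvate use. The pyruvate decarboxylase gene pdcA had ratios of fructose to glucose of 0.230 and 0.244 in the deletion strain, against 0.218 and 0.260 in the wild type. Phosphofructokinase, pfkA, had 0.462 and 0.428 in the deletion strain, against 0.355 and 0.525 in the wild type. For pyruvate kinase, pkiA, the ratios were 0.826 and 0.669 in the deletion strain, against 0.439 and 0.471 in the wild type. Triose phosphate isomerase, tpiA, stood higher in the deletion strain in all 4 media as group means, with a smallest adjusted p of 0.231 in the authors' deposited table. The acuN ratios lay on the same side of 1 as those of pkiA in the wild type.

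Of 12 peroxisome and beta-oxidation genes matched from 15 symbols, 3 with urea and 3 with ammonium were past a ratio of 2 higher on fructose in the deletion strain (9.76% and 10.2% of all genes), against 9 and 8 in the wild type (20.2% and 15.9%). The multifunctional beta-oxidation enzyme gene foxA had ratios of 3.84 and 3.81 in the deletion strain, against 10.1 and 14.2 in the wild type. The mitochondrial enoyl-CoA hydratase gene echA had 1.85 and 1.66 in the deletion strain, against 12.7 and 5.89 in the wild type. For the acyl-CoA dehydrogenase gene scdA they were 2.28 and 2.19 in the deletion strain, against 9.53 and 7.65 in the wild type, and for the fatty acyl-CoA ligase gene faaB 1.65 and 1.52, against 4.54 and 6.64.

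**Figure D4:**
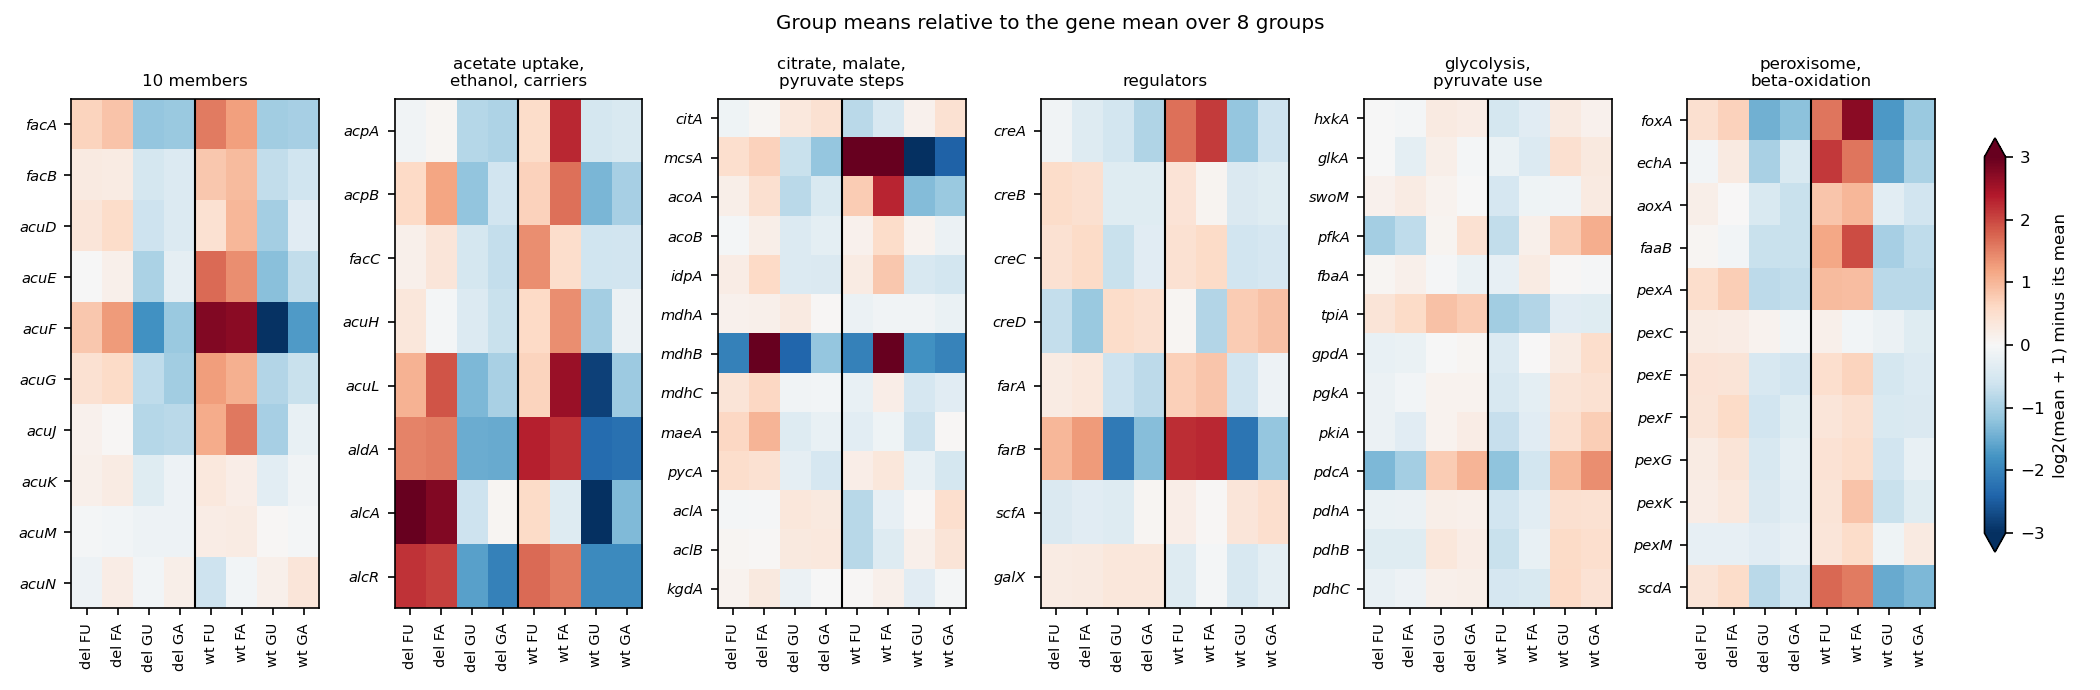
Log2 of the authors' group mean plus 1, less the mean of that value over the 8 groups, for the 10 members and 5 lists of neighbouring pathways; columns are the areB deletion groups (del) and then the wild type groups (wt) on fructose (F) or glucose (G) with urea (U) or ammonium (A), and the colour scale ends at ±3. Members other than acuM and acuN are above their mean on fructose and below it on glucose in the wild type, as are foxA, echA and farB.

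The members were broadly alike in pattern apart from acuM and acuN, a split that rests on these same group means. Over the 8 group means, Pearson's r of log2(mean + 1) ran from 0.84 to 0.99 among the other 8, from 0.55 to 0.84 between these and acuM, and from -0.68 to -0.40 between these and acuN. The 8 points share their scaling and fall apart by sugar, so r is a description only. Of 7758 other genes the 5 most like acuD were AN1629, AN0868, acuL, pexK and AN0370, with r from 0.98 to 0.99. AN0868 is annotated as an acyl-CoA thioesterase and pexK as a peroxin for peroxisome proliferation. The 5 most like acuF were AN7091, AN9130, AN8644, AN10026 and ivdA, a putative acyl-CoA dehydrogenase gene, with r from 0.99 to 1.00. By Spearman's rho instead, none of these 5 stayed among the 5 most alike for either gene. Of the members facB stood nearest to acuF, at rank 15, and acuF nearest to acuD, at rank 74. Apart from acuM and acuN the others ranked as low as 469 for acuF (acuJ) and 687 for acuD (acuE). Many genes outside the members were thus more like acuD or acuF than most members were, and the likeness is not particular to them.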

How the data were processed

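The authors deposited 1 table of 8728 genes. For each medium it gives the authors' fold change (deletion strain over wild type, a plain ratio) with the authors' adjusted p-value, and for each of 8 groups the authors' signal, a mean of normalized counts over 3 libraries. Per the submitters' processing notes DESeq2 1.16.1, HTSeq 0.9.1, GATK, Trimmomatic and FastQC were used. Aligner, build and annotation are not given there or in other sources used here. The 24 libraries were total RNA depleted of ribosomal RNA.

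From these values, log2 ratios of group means plus 1 were computed, with 7759 genes of mean at least 10 as background. For each adjusted p the p was recovered by inverting the Benjamini-Hochberg step-up, and the standard error as the absolute log2 fold change over its normal deviate. An error was kept where the deviate was above 0.1 and fixed within 5%, and was otherwise the median over that gene's other media; 8444 genes had one. On glucose most adjusted p were 1, for 7410 genes with urea and 7362 with ammonium, and no member had its own error there. Deposited fold changes were moderated towards 0 (for acuF on fructose with urea -1.58 against -1.96 from the means). Below 3 normalized counts every group mean was a whole-number sum of 3 steps (tolerance 1e-06), which gave the reads per library.

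The members and lists were chosen with earlier results of these data known. The authors' p-values weigh a difference against the spread between the replicates as the labels define them. The tests of differences between media used the recovered errors instead. For the members on glucose these were borrowed from the fructose comparisons. Named genes were the members and, per list, any called gene and the 4 of widest range over the groups. Python 3.11.15, numpy 2.4.6, pandas 2.3.3, scipy 1.17.1 and matplotlib 3.10.9 were used.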

Additional observations from a re-analysis of the deposited data

How the results depend on the processing

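No paired analysis was possible because the table holds group means only; for the same reason no library could be left out in turn. The counts of members called (0 in each medium and in each difference between media) and of members below 0 per medium did not move under any setting run for them: an adjusted p under 0.1, an added size limit, recentred fold changes, and ratios of group means. Only 8 members, in urea minus ammonium on fructose, could be tested with their own standard errors. Using ratios of group means in the test of differences was chosen after seeing the data, and again acuF alone had a p under 0.05, in the same comparison. The counts of members higher on fructose moved with the limit. In the deletion strain 3 with urea became 7 at a ratio of 1.5, 1 at 4 and 6 with equal sums, and 3 with ammonium became 6 at 1.5 and 1 at 4. In the wild type with ammonium 7 became 3 at a ratio of 4, and with urea 1 member, acuN, was lower at 1.5. On glucose, lower with urea at 1.5 were 2 members of the deletion strain, against 3 of the wild type, where 0 were at 4. The share of all genes at ratios of 1.5 and 4 or with equal sums is not given. These counts thus show only how the members move with the setting. Equal sums moved log2 ratios by at most 0.11. With no filter the background of genes past a ratio of 2 higher on fructose was 11.9% and 11.8% in the deletion strain with urea and with ammonium, against 23.6% and 17.9% in the wild type. By Spearman's rho 0 of the 5 genes most like acuD and 0 of those most like acuF stayed among the 5, and with a pseudocount of 5 these counts were 5 and 4; the cause was not tested.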

Other observations

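In the gene order of RefSeq assembly ASM1142v1, facA and acuD lie on the same chromosome with 7 genes between them. Values were at hand for 6 of these, and none was past a ratio of 2 between fructose and glucose in either strain. Of all genes 9.76% and 10.2% were higher on fructose in the deletion strain, with urea and with ammonium, against 20.2% and 15.9% in the wild type. Lower were 4.6% and 4.7%, against 7.66% and 5.32%. With so few genes a count of 0 does not set the neighbours apart from all genes. The log2 ratios of the 6 neighbours, fructose over glucose, ran from -0.08 to 0.47 with urea and from -0.04 to 0.51 with ammonium in the deletion strain. In the wild type they ran from -0.43 to 0.87 and from -0.36 to 0.56. In the same comparisons facA stood at 1.82 and 1.97 in the deletion strain, against 2.60 and 2.23 in the wild type, and acuD at 0.98 and 0.94, against 1.48 and 1.33.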
